A study of Rattus norvegicus with 8 samples.

Results

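Genes of matrix proteoglycans, 10 of the 18090 genes in the deposited table, were followed through rat abdominal aorta. They were chosen by name and family, with earlier results of these data known. Decorin (Dcn), biglycan (Bgn) and asporin (Aspn) are of class I of the small leucine-rich proteoglycans, and lumican (Lum), fibromodulin (Fmod) and Prelp of class II. Osteoglycin (Ogn) is of class III and podocan (Podn) of class V. Versican (Vcan) and aggrecan (Acan) are large chondroitin sulfate proteoglycans. All rats were wild type. In 4 samples a filter paper soaked in 10% iron chloride (FeCl3), which injures the vessel wall from outside and starts a thrombus, lay around the vessel for 5 min, and 4 control samples had 0.9% saline for 5 min. The design describes the replicates of each condition as biologically independent, and all libraries carry the label of 1 batch. Neither strain, sex and age nor the time from exposure to harvest is named in the sources used here. The question put by the design was which transcripts differ between the vessel with FeCl3-induced thrombosis and the control.

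Small leucine-rich proteoglycans are secreted proteins built from leucine-rich repeats, most of which carry chondroitin, dermatan or keratan sulfate chains. They bind collagen fibrils, set the spacing and thickness of those fibrils, and hold growth factors such as TGF-beta in the matrix. Versican and aggrecan instead bind hyaluronan through a link domain and fill the space between cells with water-holding chains. In arteries, decorin and lumican are mostly known from the collagen-rich adventitia, and biglycan and versican from the layers of smooth muscle.

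The values were FPKM, fragments scaled by the length of the gene and the total of the library, so that levels can be set side by side between genes of a library. Their sum over all genes was 745684 to 938736 in the FeCl3 libraries and 425525 to 651560 in the saline libraries. Comparisons of levels between libraries therefore depend on the scaling. Library totals recovered from the FPKM values ran from 24304434 to 30283292 fragments. Haemoglobin genes took 16.4% to 34.1% of the fragments in the FeCl3 libraries, 1.30% to 1.63% in saline replicates 1, 2 and 3, and 16.5% in saline replicate 4. Since FPKM are shares of a library, each fold change below moves with that blood RNA, and ratios between genes of a library do not. In 3 cases a control library stood apart from the others. Saline replicate 1 had summed adipocyte markers of 2.12 FPKM and summed endothelial markers of 36.4 FPKM, saline replicate 2 had 286 FPKM of mesothelial markers where the other libraries had at most 3.26, and saline replicate 4 had the blood RNA. All 8 smooth muscle markers were present in all 8 libraries, with sums of 3875 to 11092 FPKM after FeCl3 and 5084 to 27429 FPKM after saline. The samples were whole pieces of vessel, in which fewer cells of a type and less RNA per cell cannot be told apart.

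Together the 10 genes took 0.432%, 0.931%, 0.684% and 0.730% of all fragments in FeCl3 replicates 1 to 4, and 0.948%, 0.285%, 0.786% and 0.644% in saline replicates 1 to 4. Their summed level ranged from 1968 to 4079.7 FPKM after FeCl3 and from 1221 to 3541 FPKM after saline, so the groups overlapped. By mean level over the 8 libraries the order was Bgn (1059 FPKM), Ogn (778), Dcn (569), Lum (144), Aspn (58.7), Prelp (52.6), Fmod (47.3), Podn (23.3), Vcan (14.8) and Acan (0.234). All neighbours in that order had overlapping ranges over the 8 libraries except Vcan and Acan. Between its lowest and highest library Acan, on few fragments, varied 149-fold, Dcn 113-fold and Prelp, the steadiest, 3.40-fold. Acan was the only one of the 10 under the minimum for testing, 1 FPKM in at least 4 of the 8 libraries.

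**Figure D1:**
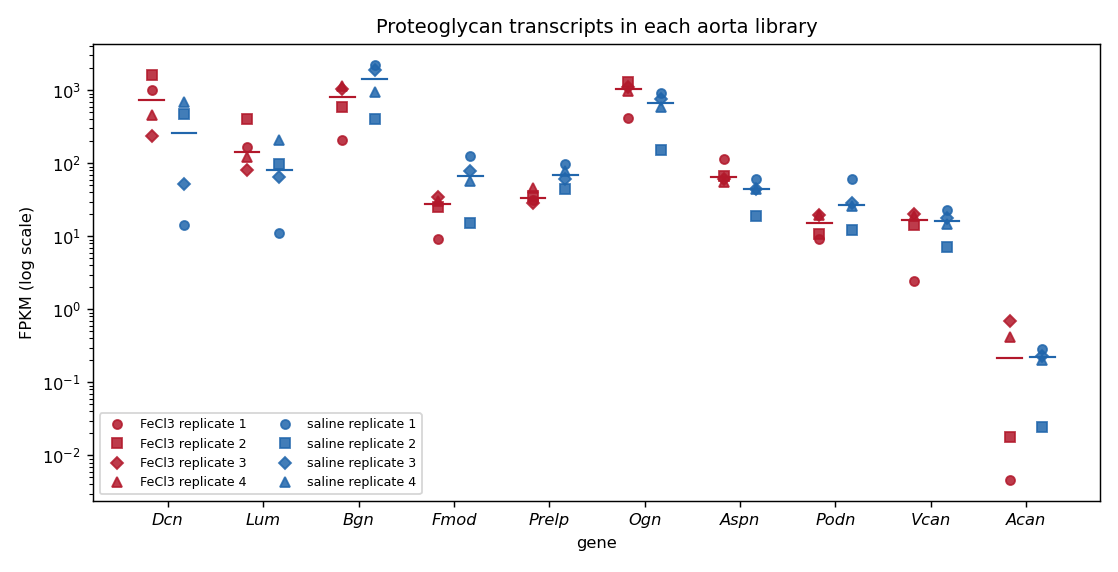
FPKM of each of the 10 proteoglycan genes (vertical axis, log scale) in the 8 libraries, with FeCl3 in red and saline in blue, marker shapes for replicates and bars for group medians. The groups overlap for all 10 genes, and Dcn spreads from 14.4 to 1638 FPKM.

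None of the 9 tested genes passed the test between FeCl3 and saline (limma on log2(FPKM + 1), two-sided, adjusted over 11921 genes, threshold 0.05). Nor did any gene of the table, so the share called over all genes was 0%. At an unadjusted p under 0.05, 1981 of the 11921 genes (16.6%) passed, 4.42% higher and 12.2% lower after FeCl3, while of the 9 proteoglycan genes 0 were higher and 1, Prelp, was lower. The fold changes were positive for Dcn, Lum, Ogn and Aspn and negative for Bgn, Fmod, Prelp, Podn and Vcan. Their median of -0.35 lay beside a median of -0.25 over all tested genes, of which 70.2% were negative. The FPKM of the 4 FeCl3 libraries overlapped with those of the 4 saline libraries for all 10 genes, whereas 9.81% of the tested genes had groups that did not overlap.

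**Figure D2:**
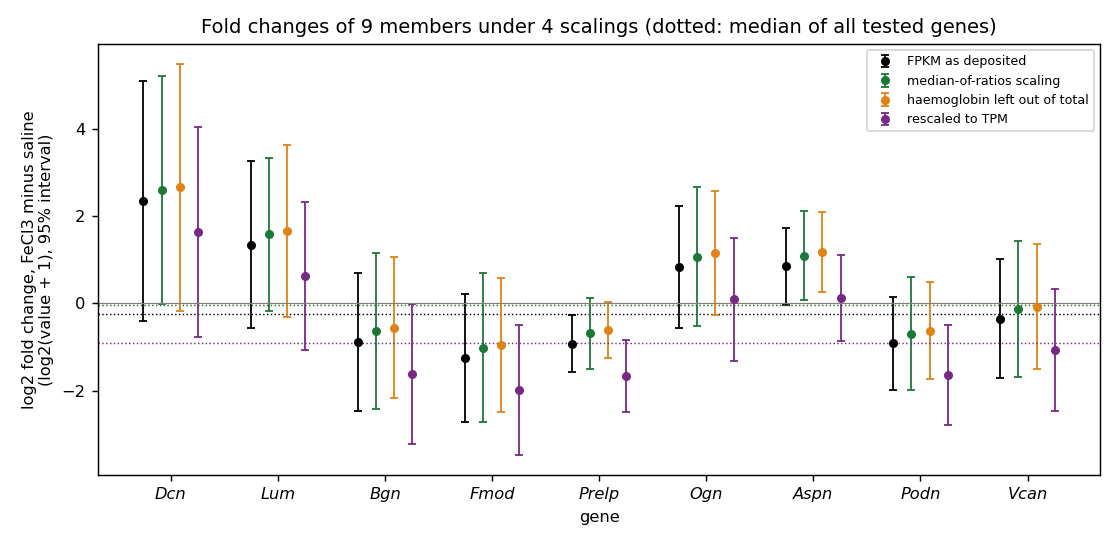
Log2 fold change of FeCl3 minus saline (vertical axis, with 95% intervals, 4 libraries a group) for the 9 tested genes under 4 scalings of the same table; dotted lines are the median of all tested genes under each scaling. Each gene keeps its sign under the 4 scalings, and with FPKM as deposited only the interval of Prelp, -1.58 to -0.27, lies on one side of 0.

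Decorin (gene ID 29139), a collagen-binding proteoglycan with a single chondroitin or dermatan sulfate chain, was measured at 1000.3, 1638, 235 and 460.1 FPKM in FeCl3 replicates 1 to 4 and at 14.4, 469.6, 52.2 and 685 FPKM in saline replicates 1 to 4. FeCl3 replicates 1 and 2 were the highest, and saline replicates 1 and 3 lay far under all others. The means were 833 ± 625 FPKM (SD, n = 4) after FeCl3 and 305 ± 327 FPKM (SD, n = 4) after saline. The log2 fold change was 2.35 ± 1.21 (SE; limma adjusted p = 0.349), with a 95% interval of -0.40 to 5.10. It came to 1.33 without saline replicate 1 and to 3.16 without saline replicate 4, so these libraries set much of its size.

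Biglycan (gene ID 25181), the closest relative of decorin and a carrier of such chains in the vessel wall, had 210.1, 583, 1034 and 1142 FPKM after FeCl3 and 2239.6, 406, 1903 and 951 FPKM after saline. Saline replicates 1 and 3 were its highest libraries, the same libraries in which Dcn was lowest. The means were 742 ± 429 and 1375 ± 845 FPKM (SD, n = 4 each), and the log2 fold change was -0.88 ± 0.70 (SE; limma adjusted p = 0.524). Without FeCl3 replicate 1 it was -0.36.

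Asporin (gene ID 306805), a class I protein with a stretch of aspartates that binds calcium and, unlike decorin and biglycan, no glycosaminoglycan chain, had 115, 67.4, 61.7 and 55.4 FPKM after FeCl3. The saline libraries had 61.6, 19.1, 44.3 and 45.0 FPKM. Only saline replicate 1 reached into the range of the FeCl3 libraries. The log2 fold change was 0.86 ± 0.39 (SE; limma adjusted p = 0.308). It was 0.52 without saline replicate 2 and 0.13 rescaled to TPM. With haemoglobin genes left out of the library total it was 1.17 (limma adjusted p = 0.336), and with median-of-ratios scaling 1.09 (limma adjusted p = 0.347). Under both of these scalings its unadjusted p was under 0.05.

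Lumican (gene ID 81682), a keratan sulfate proteoglycan that binds collagen, had 165, 399, 82.3 and 121 FPKM after FeCl3 and 11.2, 97.7, 64.6 and 208 FPKM after saline. Its lowest libraries were saline replicates 1 and 3, as for Dcn. The log2 fold change was 1.34 ± 0.84 (SE; limma adjusted p = 0.431), and it was 0.54 without saline replicate 1. In the RefSeq gene order of the assembly GRCr8, Lum lies next to Dcn, followed by the class II and III genes Kera and Epyc, which reached at most 0.0197 and 0.449 FPKM.

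Fibromodulin (gene ID 64507), which binds collagen and takes part in its crosslinking, had 9.28, 25, 35 and 30.7 FPKM after FeCl3 and 127, 15.3, 78.6 and 57.3 FPKM after saline. Apart from saline replicate 2, the saline libraries lay above all FeCl3 libraries. The means were 25 ± 11.2 and 69.6 ± 46.5 FPKM (SD, n = 4 each), and the log2 fold change was -1.25 ± 0.65 (SE; limma adjusted p = 0.352). Without saline replicate 2 it was -1.84, and without saline replicate 1 it was -0.85.

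Prelp (gene ID 84400), a basic leucine-rich protein that links basement membranes to the collagen beneath them, had 31.5, 35.6, 28.7 and 45.7 FPKM after FeCl3 and 97.8, 43.9, 60.4 and 77.4 FPKM after saline. Only FeCl3 replicate 4 and saline replicate 2 crossed between the groups. The means were 35.4 ± 7.44 and 69.9 ± 23.1 FPKM (SD, n = 4 each). The log2 fold change was -0.92 ± 0.29 (SE; limma adjusted p = 0.248). With haemoglobin genes left out of the library total it was -0.61 (limma adjusted p = 0.426), and with median-of-ratios scaling -0.69 (limma adjusted p = 0.439), and under both its unadjusted p was no longer under 0.05. Rescaled to TPM it was -1.66 with an adjusted p of 0.0408, a scaling under which 27% of all tested genes were called lower and the median of all genes was -0.90. Prelp lies next to Fmod in the GRCr8 gene order, and the class III gene Optc on its other side had 0.442 to 2.17 FPKM after FeCl3 and 0.773 to 2.61 FPKM after saline.

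Osteoglycin (gene ID 291015), also called mimecan, a small proteoglycan of connective tissue that can carry keratan sulfate, had 424, 1306, 1104 and 994 FPKM after FeCl3. The saline libraries had 906, 150.1, 758 and 585 FPKM. Of the FeCl3 libraries 3 lay above all saline libraries, and FeCl3 replicate 1 lay between saline replicates 2 and 4. The means were 957 ± 378 and 599.6 ± 327 FPKM (SD, n = 4 each), and the log2 fold change was 0.83 ± 0.61 (SE; limma adjusted p = 0.492). Without saline replicate 2 it was 0.26, and rescaled to TPM it was 0.10.

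The promoter windows of Ogn and Aspn are shown with that of Fmod, because the ratios of Ogn and Aspn to Fmod separated the 2 groups of libraries. They were taken from RefSeq (GRCr8), which gave a promoter for 7 of the 10 genes, and span 250 bases before to 50 bases after the start, written 5′ to 3′ in the direction of the gene. Ogn lies at chr17:15258946-15259245 on the minus strand, Aspn at chr17:15310420-15310719 on the minus strand and Fmod at chr13:48045317-48045616 on the plus strand. Capitals mark matches on either strand to TATAAA, the letters of a TATA box, and to CAGAC, a Smad-binding element.
Ogn: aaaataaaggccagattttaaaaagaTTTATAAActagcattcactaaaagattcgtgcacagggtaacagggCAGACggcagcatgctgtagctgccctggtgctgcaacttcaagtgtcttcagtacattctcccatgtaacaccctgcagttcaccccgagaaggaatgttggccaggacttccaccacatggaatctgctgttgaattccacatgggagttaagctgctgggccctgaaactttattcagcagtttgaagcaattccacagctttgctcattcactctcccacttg
Aspn: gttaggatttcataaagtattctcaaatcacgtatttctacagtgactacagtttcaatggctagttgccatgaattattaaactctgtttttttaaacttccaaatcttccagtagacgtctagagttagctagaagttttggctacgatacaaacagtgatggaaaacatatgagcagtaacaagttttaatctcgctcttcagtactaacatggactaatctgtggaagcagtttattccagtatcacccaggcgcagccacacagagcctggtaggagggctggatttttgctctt
Fmod: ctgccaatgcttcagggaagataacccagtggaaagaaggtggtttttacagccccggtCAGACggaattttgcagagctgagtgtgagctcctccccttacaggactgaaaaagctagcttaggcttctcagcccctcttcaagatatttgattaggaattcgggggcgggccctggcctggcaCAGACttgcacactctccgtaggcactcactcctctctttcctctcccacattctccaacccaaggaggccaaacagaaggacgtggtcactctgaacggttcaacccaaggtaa
Ogn held TATAAA on both strands in 1 overlapping stretch, and 14.3% of 27457 promoter windows of the same length held it. That stretch lies near the 5′ end of the window, far from the start of the gene, and whether it acts as a TATA box was not tested. CAGAC occurred 1 time in Ogn, 2 times in Fmod and 0 times in Aspn, beside 50% of all windows. Neither TGANTCA, the AP-1 site (7.33% of windows), nor the CArG box bound by serum response factor (1.64% of windows) occurred in any of the 7 windows. These letters were searched on both strands and describe the windows only.

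Podocan (gene ID 102552895), a class V protein first described in the kidney glomerulus and also found in the vessel wall, had 9.22, 10.7, 19.7 and 19.6 FPKM after FeCl3 and 60.2, 12.3, 28.4 and 25.9 FPKM after saline. Saline replicate 2 was the only control library within the FeCl3 range. The log2 fold change was -0.92 ± 0.46 (SE; limma adjusted p = 0.343). It was -0.55 without saline replicate 1, and rescaled to TPM it was -1.64 with an adjusted p of 0.0454.

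Versican (gene ID 114122), the hyaluronan-binding proteoglycan of the intima and media, had 2.47, 14.4, 20 and 18.7 FPKM after FeCl3 and 22.9, 7.2, 18.0 and 14.7 FPKM after saline. FeCl3 replicate 1 was far under the rest. The log2 fold change was -0.35 ± 0.60 (SE; limma adjusted p = 0.776), with a 95% interval of -1.72 to 1.01, and it turned to 0.25 without FeCl3 replicate 1.

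Aggrecan (gene ID 58968), the chief proteoglycan of cartilage and a minor one of arteries, rested on 1, 4, 146 and 91 fragments after FeCl3 and 72, 5, 58 and 43 fragments after saline. These fragments amount to 0.00460, 0.0176, 0.685 and 0.415 FPKM and to 0.287, 0.0249, 0.233 and 0.205 FPKM. FeCl3 replicates 3 and 4 were thus the highest and FeCl3 replicates 1 and 2 the lowest of all 8. Acan was not tested. Of 8 chondrocyte markers 3 reached 1 FPKM in any library, their sum was 2.81 to 4.09 FPKM after FeCl3 and 2.45 to 8.36 FPKM after saline, and Col2a1, Col9a1, Matn1, Matn3 and Sox9 stayed under 1 FPKM in each library.

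The make-up of the proteoglycan pool differed more between libraries than its size. Bgn made up 63.2% and 63.3% of the summed FPKM of the 10 genes in saline replicates 1 and 3 and 10.7% and 14.3% in FeCl3 replicates 1 and 2. Dcn ran the other way, with 50.8% and 40.2% in FeCl3 replicates 1 and 2 and 0.408% and 1.73% in saline replicates 1 and 3. The remaining libraries lay between, with Bgn at 39.4% and 39.5% in FeCl3 replicates 3 and 4. The shares of 2 of the 10 genes did not overlap between the groups, both lower after FeCl3, beside 5.91% of all tested genes that were lower without overlap, and 5.99% in either direction, when set against the same sum. For Prelp they were 0.873% to 1.60% after FeCl3 and 2.01% to 3.60% after saline, and for Podn 0.263% to 0.752% and 0.946% to 1.70%. These shares were looked at after the values were known and carry no test.

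**Figure D3:**
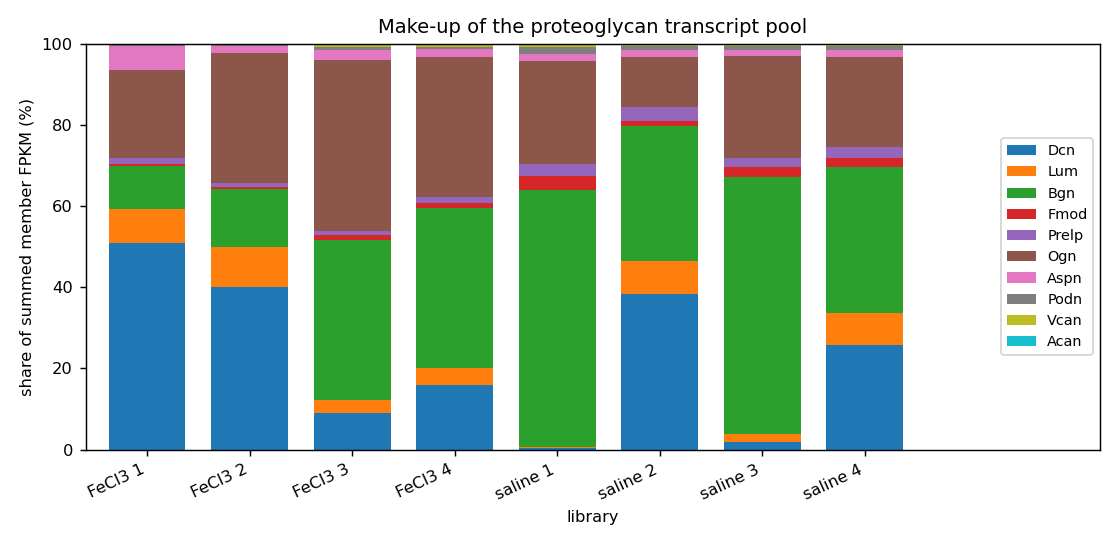
Share of each gene in the summed FPKM of the 10 proteoglycan genes (vertical axis, %) in each of the 8 libraries. Dcn (blue) fills 50.8% of the pool in FeCl3 replicate 1 and 0.408% in saline replicate 1, where Bgn (green) holds 63.2%.

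Across libraries some of the genes followed 1 of 2 patterns that cut across the treatment. Bgn, Vcan and Acan had the same 4 highest libraries as the summed smooth muscle markers, 2 from each group, and Bgn stood at the same rank as that sum in 6 of the 8 libraries. Fmod and Podn shared 3 of their 4 highest libraries with the smooth muscle sum. They shared 4 with the summed chondrocyte markers, which reached at most 8.36 FPKM. The ratio of Bgn to Acta2, the smooth muscle actin, stayed between 0.161 and 0.295 in all 8 libraries, 1.83-fold from lowest to highest. Ratios of Bgn to Fmod (16.6 to 37.2), Podn (22.8 to 66.9) and Vcan (40.6 to 105) varied 2.24-fold, 2.93-fold and 2.60-fold over libraries in which Bgn itself varied 10.7-fold. All 8 smooth muscle markers had negative fold changes, with 1 at an unadjusted p under 0.05 and a median of -0.98. Their part in the values of Bgn, Fmod, Podn and Vcan was not tested.

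Dcn had the same 4 highest libraries as the summed fibroblast markers and as the summed mesothelial markers, which outside saline replicate 2 reached at most 3.26 FPKM. It shared 3 of these 4 libraries with the platelet sum and 3 with the macrophage sum. Dcn stood at the same rank as Dpt, the gene of dermatopontin and a marker of adventitial fibroblasts, in 6 of the 8 libraries, against 3 for the fibroblast sum and 5 for the adipocyte sum. Dpt was singled out after its values were seen. The ratio of Dcn to Dpt stayed between 3.11 and 9.11, 2.93-fold, while Dcn itself varied 113-fold. The ratio of Dcn to Bgn varied 738-fold, from 0.00645 in saline replicate 1 to 4.76 in FeCl3 replicate 1, and its groups overlapped (0.227 to 4.76 after FeCl3, 0.00645 to 1.16 after saline). All 8 fibroblast markers reached 1 FPKM, their sum was 213 to 954 FPKM after FeCl3 and 334 to 696 FPKM after saline, and Tcf21 was at 0 in some libraries. Of these markers 6 had positive and 2 negative fold changes, and Col15a1, 1 of the 2, had 28.2 to 116 FPKM after FeCl3 and 106 to 342 FPKM after saline, and without it the sums were 132 to 838 and 73.9 to 545 FPKM. The 7 adipocyte markers, all present, summed to 424 to 10737 FPKM after FeCl3 and 2.12 to 8891 FPKM after saline, with Cidec and Lep at 0 in some libraries, and their 4 highest libraries included 3 of those of Dcn. Aspn shared its rank with Dpt in 4 of the 8 libraries. Lum shared its rank with Dpt in 3 of the 8 libraries, with the fibroblast sum in 4 and with the adipocyte sum in 5. Its 4 highest libraries were those of the summed monocyte and macrophage markers, of which all 8 reached 1 FPKM, with sums of 208 to 719 FPKM after FeCl3 and 4.78 to 492 FPKM after saline and Cd68 at 0 in some libraries, and they included 3 each of the 4 highest of the fibroblast and adipocyte sums. The part of fibroblast, mesothelial, fat, platelet and macrophage content in the values of Dcn and Lum was not tested.

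**Figure D4:**
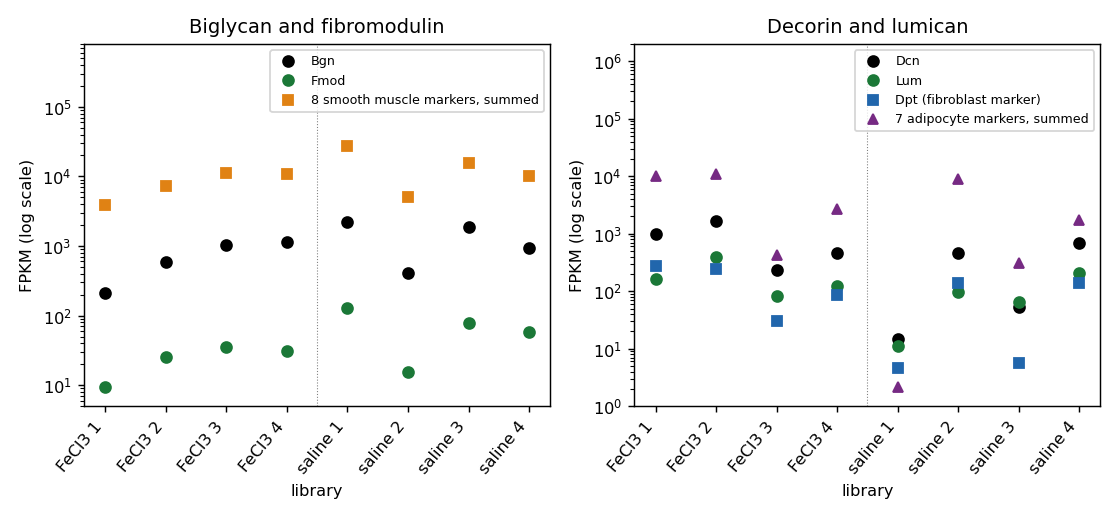
FPKM (log scale) in each library of Bgn and Fmod with the sum of 8 smooth muscle markers (left), and of Dcn and Lum with Dpt and the sum of 7 adipocyte markers (right). Bgn stands at the same rank as the smooth muscle sum in 6 libraries and Fmod in 5, and Dcn stands at the same rank as Dpt in 6. Dcn and Lum are lowest, at 14.4 and 11.2 FPKM, in saline replicate 1.

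Ogn and Aspn stood at the same rank as the sum of the smooth muscle markers in 0 and 1 of the 8 libraries, as did Dcn (0) and Lum (1). The count was 6 for Bgn, 5 each for Fmod and Vcan, 3 each for Podn and Prelp and 2 for Acan. Of the 4 highest libraries of Ogn, 3 were also among those of that sum. Relative to Fmod, Bgn, Podn and Prelp, both Ogn and Aspn were higher in each FeCl3 library than in any saline library. Relative to Vcan this held for Ogn and not for Aspn, and relative to Acan, with its few fragments, for neither. The ratio of Ogn to Fmod was 45.7, 52.2, 31.6 and 32.4 after FeCl3 and 7.13, 9.78, 9.64 and 10.2 after saline, so that the lowest FeCl3 library lay 3.09-fold above the highest saline library. Among 11577 genes set against Fmod in this way that gap ranked 3, and 2.88% of them had higher ratios after FeCl3 with no overlap.

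Bgn, Vcan, Podn, Prelp and Myh11 as denominators of Ogn gave the same order with smaller gaps, while its ratios to Acan, Dcn and Lum overlapped. Ogn to Bgn was 2.02, 2.24, 1.07 and 0.870 after FeCl3 and 0.405, 0.370, 0.398 and 0.615 after saline, where 0.717% of genes had higher ratios to Bgn with no overlap. Ogn to Vcan ran from 53.1 to 172 after FeCl3 and from 20.8 to 42.0 after saline (0.233% of genes), Ogn to Podn from 46.0 to 122 and from 12.2 to 26.6 (3.4% of genes), and Ogn to Prelp from 13.5 to 38.4 and from 3.42 to 12.5 (11.9% of genes). Ogn to Myh11, the smooth muscle myosin heavy chain, was 1.77 to 4.66 after FeCl3 and 0.329 to 1.04 after saline (3.92% of genes). In each of these ratios all saline libraries were lower than all FeCl3 libraries. The control closest to the FeCl3 libraries was saline replicate 4, with its high blood share, for the ratios to Fmod, Bgn and Myh11. For those to Vcan, Podn and Prelp it was saline replicate 3. The part of blood content in these ratios was not tested.

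Aspn to Fmod was 12.4, 2.69, 1.76 and 1.81 after FeCl3 and 0.485, 1.24, 0.563 and 0.786 after saline, a gap of 1.42-fold that ranked 122 of 11577. Aspn to Bgn was 0.549, 0.115, 0.0597 and 0.0485 after FeCl3 and 0.0275, 0.0470, 0.0233 and 0.0473 after saline, a gap so narrow that FeCl3 replicate 4 and saline replicate 4 lay next to each other. Ratios of Aspn to Prelp (1.21 to 3.66 and 0.434 to 0.733), Podn (2.83 to 12.5 and 1.0 to 1.74) and Myh11 (0.0985 to 0.604 and 0.0418 to 0.0800) did not overlap either. Of all genes compared, 11.9%, 3.4% and 3.92% had higher ratios to Prelp, Podn and Myh11 with no overlap. The ratios of Aspn to Vcan, Dcn, Lum and Acan overlapped. Against Dcn the ratios of Ogn ranged from 0.424 to 4.70 after FeCl3 and from 0.320 to 62.7 after saline, and overlapped.

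In all, 9 of the 36 ratios among the 9 tested members (25%) did not overlap between the groups, beside 7.27% of all 67019253 ratios of tested genes above 0 in each library. Each of the 9 has Ogn or Aspn as one partner, so they are not independent of each other. The ratios were chosen after their values were seen and carry no p-value.

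**Figure D5:**
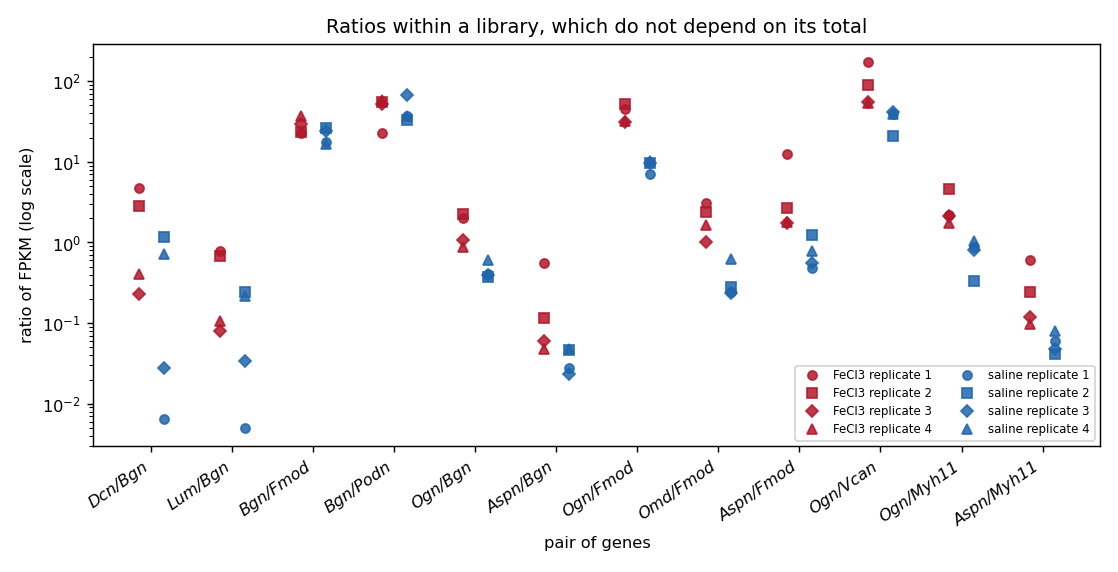
Ratio of the FPKM of pairs of genes (vertical axis, log scale) within each library, FeCl3 in red and saline in blue, with marker shapes for replicates. Among the pairs plotted, Ogn over Fmod separates the groups most widely (31.6 to 52.2 against 7.13 to 10.2), while Bgn over Fmod and Bgn over Podn overlap and Dcn over Bgn spreads 738-fold.

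Ogn and Aspn, whose promoter windows were printed with that of Fmod, are neighbours in the GRCr8 gene order, with the class II gene Omd between them and Ecm2 beyond Aspn. Omd, osteomodulin or osteoadherin of bone matrix, had 28.5, 60.6, 35.7 and 51.1 FPKM after FeCl3 and 31.0, 4.36, 18.4 and 35.5 FPKM after saline. Its groups overlapped, and FeCl3 minus saline was 1.21 ± 0.58 on the log2 scale (SE; limma adjusted p = 0.323). Set against Fmod, Omd was 1.0 to 3.07 after FeCl3 and 0.233 to 0.619 after saline, without overlap, and against Bgn it overlapped. Ecm2, the next leucine-rich gene, overlapped against Fmod (0.537 to 2.92 and 0.212 to 0.618). The separation against Fmod thus covered Ogn, Omd and Aspn, beside 2.88% of the 11577 genes compared. Omd and Ecm2 were not set against Prelp, Podn or Vcan.

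The genes that build, bind or cut these proteoglycans were counted from lists in the same fit, and 0 of them passed the test. Of 4 other small leucine-rich genes tested, 2 had positive and 2 negative fold changes, with none at an unadjusted p under 0.05 and a median of -0.01. Of 4 other hyaluronan-binding or chondroitin sulfate proteoglycans, 2 were positive and 2 negative (median -0.32), and Srgn, the proteoglycan of blood cell granules and the most abundant of them, had 69.0 to 103 FPKM after FeCl3 and 39.1 to 81.8 FPKM after saline. Of 19 genes that make the linker and the chondroitin or dermatan sulfate chains, 3 were positive and 16 negative, with none at an unadjusted p under 0.05 and a median of -0.39. The most abundant, the linker glucuronosyltransferase B3gat3, had 25.1 to 49.9 FPKM after FeCl3 and 17.7 to 72.6 FPKM after saline.

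Of 4 genes of keratan sulfate synthesis 4 were negative, and the sulfotransferase Chst2 was at -0.75 ± 0.25 on the log2 scale (SE; limma adjusted p = 0.255). Of 7 genes that make, bind or break down hyaluronan 3 were positive and 4 negative, and the hyaluronidase Hyal1 was measured at 3.06 to 12.4 FPKM after FeCl3 and 14.9 to 20.6 FPKM after saline (limma adjusted p = 0.248). The median of the first list was -0.26 and that of the second -0.05.

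Of 11 proteases that cleave these core proteins 3 were positive and 8 negative, with a median of -0.49. Adamts9, a versican- and aggrecan-cleaving metalloprotease, had 2.15 to 4.77 FPKM after FeCl3 and 7.11 to 14.4 FPKM after saline (log2 fold change -1.28 ± 0.29 (SE), limma adjusted p = 0.245). Bmp1, which trims the propeptides of several small leucine-rich proteoglycans, was at -0.59 ± 0.26 on the log2 scale (SE; limma adjusted p = 0.30). Gzmb, the granule protease of cytotoxic lymphocytes, was the 1 gene on the positive side at an unadjusted p under 0.05, with 1.14 to 2.47 FPKM after FeCl3, 0 in saline replicate 1 and up to 1.70 FPKM in saline replicate 4.

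Of 10 collagens that these proteins bind 2 were positive and 8 negative, with a median of -0.79, and Col12a1 had 2.05 to 3.00 FPKM after FeCl3 and 3.51 to 10.2 FPKM after saline (limma adjusted p = 0.245). Of 13 receptors and growth factors bound by them 2 were positive and 11 negative, with a median of -0.80. The groups of 3 receptors did not overlap, beside 9.81% of all tested genes. Lrp1, an endocytic receptor that takes up decorin, had 14.4 to 20 FPKM after FeCl3 and 35.1 to 44.3 FPKM after saline (log2 fold change -1.18 ± 0.20 (SE), limma adjusted p = 0.245). Egfr, to which decorin binds, had 0.960 to 2.42 and 2.85 to 5.64 FPKM, and Igf1r had 0.674 to 1.63 and 1.87 to 7.02 FPKM. None of these values passed the adjusted threshold.

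The annotation deposited with the values groups the members in a way the family names do not. Reactome's keratan sulfate terms hold Lum, Fmod, Prelp, Ogn and Acan, and its chondroitin and dermatan sulfate terms hold Dcn, Bgn and Vcan. The 2 patterns across libraries cross these groups. Of the keratan sulfate genes, Fmod stood at the same rank as the smooth muscle sum in 5 of the 8 libraries. Lum shared 3 of its 4 highest libraries with Dcn. Ogn shared its rank with the smooth muscle sum in 0 libraries and with Dpt in 0. Bgn and Dcn, alike in chain type and class, had none of their 4 highest libraries in common.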

How the data were processed

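RNA of 8 abdominal aorta samples was sequenced from polyA libraries made with the VAHTS Universal V6 kit, per the labels. The authors deposited 1 table of FPKM values. The tools listed in the submitters' processing notes are HTSeq, HISAT2 and fastp, without versions, and the build is mRatBN7.2. The sources used here do not state whether counting used strand. The members and lists were chosen with earlier results of these data known.

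Titles matched all columns to samples (0 columns unmapped). Library totals and fragments were recovered from the steps of low FPKM values, whole within 0.02 for 100% of genes; 1 gene, Hbb, had its count doubled. The 11921 genes that reached 1 FPKM in 4 or more of the 8 libraries entered limma 3.58.1 on the scale log2(FPKM + 1) (trend, two-sided, Benjamini-Hochberg, R 4.3.3), 4 libraries a group, and fold changes on this scale understate those of low genes. The pseudocount was 1. Alternatives were pseudocounts of 0.1 and 0.01, other filters, limma without trend, scaling to TPM or by median of ratios, library totals without haemoglobin, limma voom on recovered fragments with TMM factors, and libraries left out. The script was tested on simulated data. Named were the 10 members, from each list up to 3 genes with the smallest unadjusted p under 0.05 or else the most abundant, and the most abundant marker of each cell type. Optc, Kera, Epyc, Ecm2, Dpt, Acta2 and Myh11, and the fibroblast sum without Col15a1, were added after their values were seen. Mmp13 and Gp1bb were not analysed here. The most abundant markers not described above were, in the saline and FeCl3 ranges, Tagln (2158 to 11482 and 2009 to 5205 FPKM), Pecam1 (4.58 to 85.9 and 57.3 to 123), Pf4 (17.8 to 1579 and 922 to 2429), Lyz2 (3.34 to 412 and 191 to 569.9), Comp (0.766 to 3.53 and 0.724 to 1.75), Fabp4 (1.45 to 6583 and 339 to 8797), Krt19 (0 to 199 and 0.410 to 1.38) and Hba-a1 (11432 to 148687 and 147404 to 396570.4). The summed red cell markers were 22628 to 285375 FPKM after saline and 284462 to 612589 after FeCl3, platelet markers 19.8 to 1678 and 979.6 to 2541, and macrophage markers 4.78 to 492 and 208 to 719. The values of 1 marker list are not reported here.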

Additional observations from a re-analysis of the deposited data

Results flagged for a closer look

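In 8 of 58 groups of 4 values examined, 1 library lay far from the other 3 (a gap, as a share of the group's range, over Dixon's 95% critical value). The rate of 1 in 20 behind that value holds for independent, normally distributed values. Here shares within a library depend on each other, and the 9 ratios were kept because their groups did not overlap and share Ogn or Aspn. The 8 of 58 can therefore not be set against 1 in 20. FeCl3 replicate 1 was high for asporin: Aspn made up 5.86% of the summed proteoglycan FPKM there, its ratio to Bgn was 0.549 and its ratio to Fmod was 12.4. FeCl3 replicate 2 had an Ogn to Podn ratio of 122. Saline replicate 1 had a Podn share of 1.70%. Saline replicate 2 was low, with an Acan share of 0.00204%, which rests on 5 fragments, and an Ogn to Vcan ratio of 20.8. Saline replicate 4, the control with the most blood RNA, had an Ogn to Bgn ratio of 0.615, the control closest to the FeCl3 libraries.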

How the results depend on the processing

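Over 162 alternative values for the 9 tested members, 18 for each, 159 kept their direction and side of the threshold, 2 passed it and 1 turned. Rescaled to TPM, Prelp (-1.66) and Podn (-1.64) passed. Vcan turned to 0.25 without FeCl3 replicate 1, and leaving out 1 library at a time gave -0.66 to 0.25. Acan went from 0.08 to -0.55 with a pseudocount of 0.01. Rescaling to TPM called 3288 genes (65 higher, 3223 lower), gave 5999 at an unadjusted p under 0.05 and 3973 whose groups did not overlap, and moved the median of all genes from -0.25 to -0.90. Median-of-ratios scaling moved that median to -0.04 and turned the genes at an unadjusted p under 0.05 from 527 higher and 1454 lower to 1083 and 520; leaving haemoglobin out of the total gave 1060 and 394, and voom 1004 and 589. The other scalings, filters, pseudocounts and models called 0 genes. Without 1 library, 0 to 160 genes were called (160 without saline replicate 4, 150 higher and 10 lower), 1095 (without saline replicate 3) to 2083 had an unadjusted p under 0.05, and 1252 to 2154 had groups that did not overlap. Without saline replicates 1 and 4 together 51 were called and 3724 did not overlap. Groups of fewer libraries separate more often by chance, so these counts without overlap cannot be compared directly with that of all 8 libraries. No paired analysis was possible because the treatment labels carry no replicate numbers and the sample titles of the groups share only 1 number, 7. Depth limits Acan most, at 1 to 146 fragments a library. With 4 libraries a group, intervals as wide as that of Dcn leave large differences undetectable.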
